A study of Mus musculus with 15 samples.

Results

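The switch junctions of 3 libraries from wild-type (WT) mice of strain 129s were set beside those of 3 libraries from C57BL/6 mice, out of 15 libraries in the series. All 3 libraries of the 129s strain were taken. The C57BL/6 libraries were chosen by measured values: their Sγ1 junction counts are those printed for WT in the study's figures, so they were selected by the readout and are described here with no test. C57BL/6 library 1 is labelled WT, whereas library 2 is labelled Shld1-/- and library 3 is labelled XLF-/-. The 6 lists held 31969 junctions: 3172, 5045 and 2880 in 129s libraries 1, 2 and 3, and 4441, 8531 and 7900 in C57BL/6 libraries 1, 2 and 3.

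The study followed end joining during class switch recombination in splenic B cells lacking Shld1, XLF or both. Per the methods, cells from mice aged 6 to 17 weeks were cultured for 96 h, with IL-4 and LPS added together with dextran-bound anti-IgD. Joining was read by CSR-HTGTS, in which a primer in the 5′ part of Sμ (the bait) recovers the sequences joined to it (the preys). For all WT libraries, 129s and C57BL/6, the label on the target locus names a non-coding IgH Sm-Sa deletion, and for the libraries labelled Shld1-/- or XLF-/- it names an Ia deletion. The methods describe no such allele in the mice. The labels tie no library to an animal, and for strain 129s the sources used here give neither the substrain nor whether the libraries came from separate mice. Junctions in genomic DNA carry no measure of expression, so neither the deleted genes nor the B cell identity could be checked.

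In class switch recombination, activation-induced deaminase (AID) makes breaks in the repetitive switch regions that lie before each heavy-chain constant gene, and a break in Sμ is joined to a break in a downstream acceptor such as Sγ1 or Sε. AID acts best at cytosines in short motifs, of which AGCT is the classic one in switch repeats. Most joins delete the DNA in between, some invert it, and the broken ends are joined directly, through a few shared bases (microhomology, MH) or with inserted bases. The repeats of switch regions differ in length between mouse strains.

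The bait was the same in both strains over its first 264 bases. Bait base 1 lay at position 113426698 of chromosome 12 in GRCm38.p6, which is C57BL/6J sequence, and at base 299657 of the 129S1/SvImJ alternate scaffold of chromosome 12 in the same assembly. The strand read is the minus strand, which is the coding strand of the constant genes. Its first 110 bases (GRCm38.p6, chr12:113426589-113426698) are shown because every junction starts from them, with the AGCT motifs in capitals.
bait, bases 1 to 110: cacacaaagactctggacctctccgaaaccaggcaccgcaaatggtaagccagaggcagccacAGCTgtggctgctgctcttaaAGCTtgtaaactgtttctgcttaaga
Further along, the haplotypes carried the substitutions C265T and G285A, counted from bait base 1 with the C57BL/6J base first. The stretches from base 255 to base 294 are shown because these bases tell the strains apart, and the capitals mark them.
C57BL/6J: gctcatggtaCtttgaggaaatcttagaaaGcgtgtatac
129S1/SvImJ: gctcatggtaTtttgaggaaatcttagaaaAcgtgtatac
Of 124 reads of the 129s libraries that covered base 265, 123 had T and 1 had C. Of 386 such reads in the C57BL/6 lists with positions, 383 had C and 0 had T. These reads came from 8 of the 10 lists, as the libraries labelled C57BL/6 WT 2 and WT 3 had none, and the library labelled Shld1-/-XLF-/- 1 had 1. At base 285, 105 of 107 reads in the 129s libraries had A, against 0 of 352 in the C57BL/6 lists, where 349 had G.

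The preys gave the same picture. Each prey on chromosome 12 was aligned to both haplotypes, and among those with a better score on 1 side, 99.4 to 99.8% of Sγ1 preys and 98.2 to 99.0% of Sμ preys in the 129s libraries were better on 129S1/SvImJ. In the 10 C57BL/6 lists, 0 to 1.38% of Sγ1 preys and 8.20 to 19.8% of Sμ preys were better on 129S1/SvImJ. By the Sγ1 and Sμ preys, most reads with a better side in each of the 13 lists carried the haplotype of the strain on their label, those labelled Shld1-/- and XLF-/- included.

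**Figure D1:**
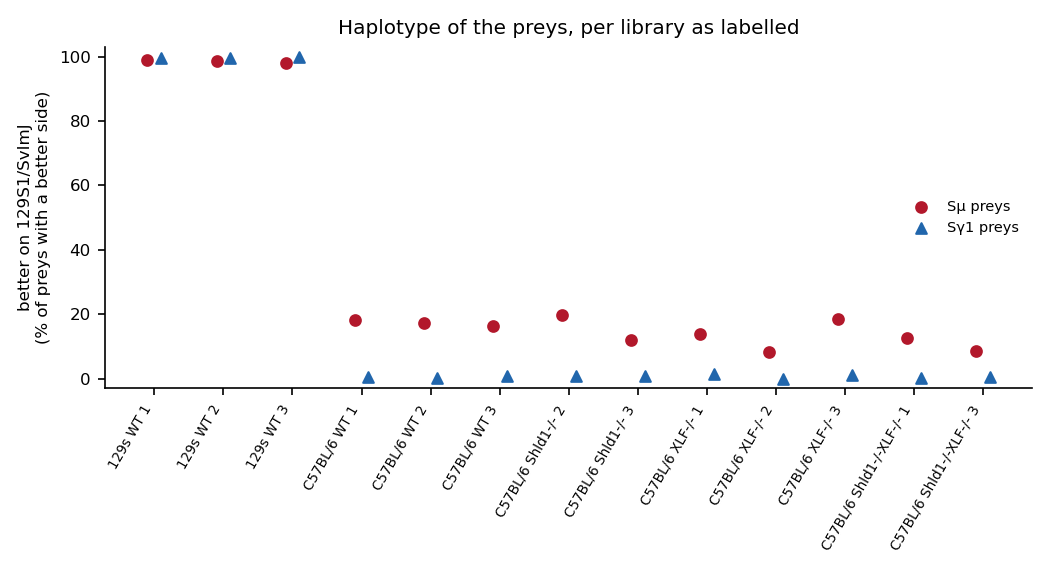
Share of preys that aligned better to the 129S1/SvImJ scaffold than to C57BL/6J, among preys with a better side (y axis, %), for each of the 13 lists with positions (x axis, named by label; circles, Sμ; triangles, Sγ1). The 3 libraries of 129s lie at 98.2% or above, and every C57BL/6 list lies at 19.8% or below.

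The lists number chromosome 12 differently. The most frequent bait end was 114669256 in the 129s lists and 114664909 in the C57BL/6 libraries, and the 129s numbering ran parallel to the 129S1/SvImJ scaffold (90.8 to 92.7% of Igh preys with a single best place sat at 1 common shift). Positions are therefore given as the distance from the most frequent bait end, counted toward the constant genes. On that scale the first Ighm exon starts at 3.97 kb in C57BL/6J and at 5.67 kb in 129S1/SvImJ, and the first Ighg1 exon at 96.2 kb and 103.9 kb. The Sμ window spans 10 kb on each side of the bait, and the Sγ1 window spans 20 kb centred on 95.6 kb in 129s and on 91.3 kb in C57BL/6. The 129s libraries were read in 1 sequencing run and the C57BL/6 libraries in another, so strain and run cannot be told apart in any comparison below.

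At Sμ, joins of the 129s libraries reached further from the bait. Deletional Sμ junctions beyond 3 kb made up 43.7%, 42.7% and 42.1% of Sμ deletions in 129s libraries 1, 2 and 3 (42.8% ± 0.780, SD, n = 3). They made up 2.23%, 2.67% and 2.68% in C57BL/6 libraries 1, 2 and 3. The strains did not overlap, and neither did the 95% Wilson intervals of any pair of libraries. The median distance of deletional junctions on the constant-gene side of the most frequent bait end was 2.52 to 2.77 kb in 129s and 1.56 to 1.66 kb in C57BL/6. The 95th percentile was 4.43 to 4.52 kb against 2.65 to 2.73 kb. Shares beyond 3 kb were also high in other C57BL/6 lists of the series, as the 10 lists of all labels spanned 2.23 to 47.1%. The libraries labelled C57BL/6 WT 2 and WT 3, which the choice by counts leaves out, had 27.2% and 18.6%. Their 95th percentiles, 8.43 and 5.38 kb, lay past the first Ighm exon of C57BL/6J at 3.97 kb. Those of 129s lay before the 129S1/SvImJ exon at 5.67 kb, so the 3 kb cut does not compare like stretches.

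The reach of Sμ junctions can be set beside the motif map of each haplotype. Windows of 250 bp with at least 10 copies of AGCT (a palindrome, so the same on both strands) ran from 1 to 4.50 kb in 129S1/SvImJ, with 424 copies in 14 windows, and from 1.25 to 2.75 kb in C57BL/6J, with 175 copies in 6 windows. Inside that stretch lay 77.8%, 73.3% and 75.3% of the deletional Sμ junctions of 129s libraries 1, 2 and 3, and 66.5%, 62.3% and 59.9% of those of C57BL/6 libraries 1, 2 and 3. Beyond its far edge lay 3.93 to 5.34% in 129s and 3.95 to 4.51% in C57BL/6. The shares beyond the far edge thus overlapped, while those inside the stretch did not. The first 250 bp from the most frequent bait end, a stretch that includes the bait itself, held 2.07 to 2.62% of all Igh junctions as deletions in 129s. In C57BL/6 they held 5.49 to 6.08%.

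**Figure D2:**
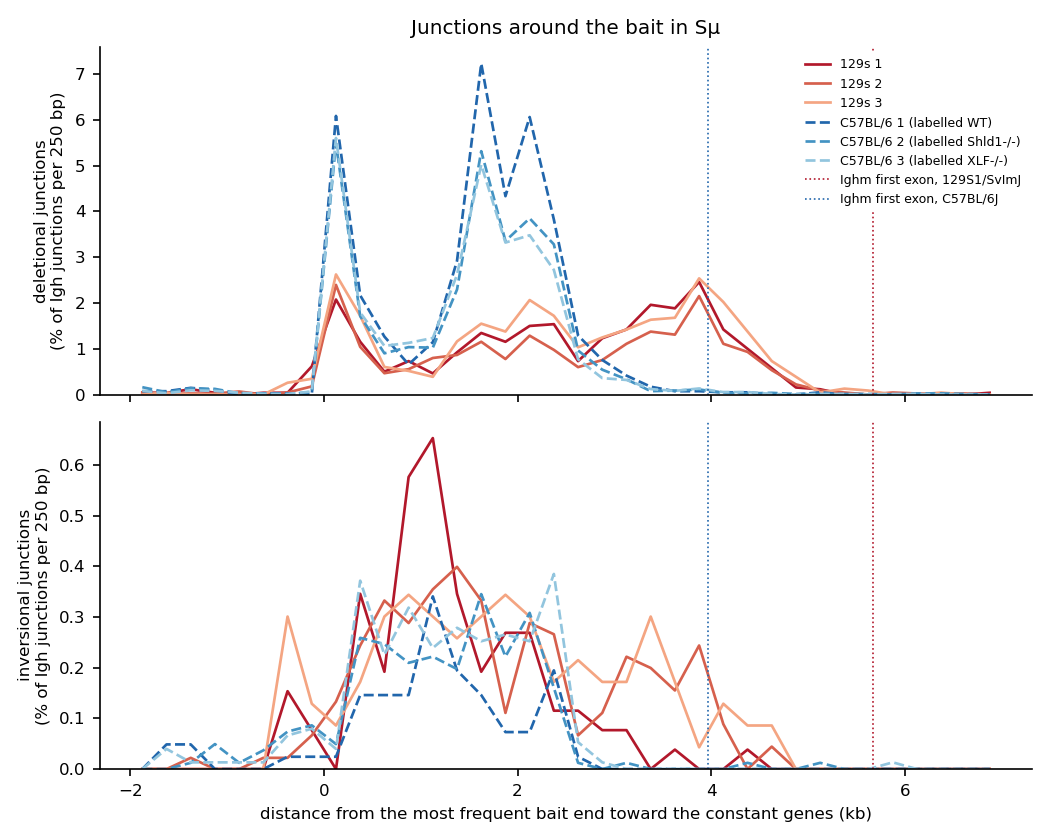
Deletional (top) and inversional (bottom) junctions per 250 bp as a percentage of Igh junctions (y axes) against the distance from the most frequent bait end (x axis, kb), 1 line per library (solid, 129s; dashed, C57BL/6). Dotted lines mark the first Ighm exon of each haplotype. The 95th percentile of deletional junctions lay at 4.43 to 4.52 kb in 129s and at 2.65 to 2.73 kb in C57BL/6.

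In 129s, prey ends lay near the motif about as often as positions of the same stretch did. An AGCT lay within 5 bases on either side of the prey end in 60.04%, 54.2% and 57.7% of deletional Sμ junctions without insertion in the 129s libraries, where 59.5%, 58.3% and 58.1% of all positions between the 5th and the 95th percentile of the same junctions had one. In C57BL/6 libraries 1, 2 and 3 it was 48.9%, 48.0% and 46.3% of junctions against 43.9%, 43.9% and 43.6% of positions, so each C57BL/6 library was above its stretch. GAGCT, which contains AGCT, gave 47.6 to 54.2% of 129s junctions against 51.4 to 52.7% of positions.

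Inversional joins within Sμ were more frequent in 129s than in the 3 C57BL/6 libraries. They made up 12.2% (95% interval 10.1 to 14.7), 16% (14 to 18.2) and 13.2% (11 to 15.7) of Sμ junctions in 129s libraries 1, 2 and 3. In C57BL/6 libraries 1, 2 and 3 they made up 4.11% (3.26 to 5.17), 7.61% (6.68 to 8.66) and 8.89% (7.85 to 10.1). Every 129s value was above every C57BL/6 value, although the interval of 129s library 1 touched that of C57BL/6 library 3. Inversions beyond 3 kb were 4.35%, 23.6% and 22.5% of Sμ inversions in 129s libraries 1, 2 and 3, with only 4 of 92 in library 1, and 0.442 to 1.90% in C57BL/6. Other C57BL/6 lists also had a high share: in those labelled C57BL/6 WT 2 and WT 3, 15.2% and 20.7% of Sμ junctions were inversions. The 10 C57BL/6 lists spanned 4.11 to 29.2%. These include lists labelled Shld1-/-, XLF-/- or both. At Sγ1, WT 2 and WT 3 had join structures unlike that of C57BL/6 library 1. Such lists therefore do not show how far WT C57BL/6 libraries range.

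At Sγ1, the main acceptor under this stimulation, 129s differed in place from the 3 C57BL/6 libraries, while the Sγ1 shares overlapped. The Sγ1 window held 66.4%, 69.0% and 61.7% of Igh junctions in 129s libraries 1, 2 and 3, and 57.2%, 63.9% and 64.2% in C57BL/6 libraries 1, 2 and 3, so the ranges overlapped. The Sμ window held 29.0%, 25.2% and 33.3% against 40.9%, 34.0% and 33.7%, ranges that lay 0.456 percentage points apart. The C57BL/6 libraries were chosen by their Sγ1 counts, so neither share is read as a result about strain. The libraries labelled C57BL/6 WT 2 and WT 3, which that choice leaves out, had Sγ1 shares of 25.1% and 46.3%. Median deletional junctions lay 95.5 to 95.8 kb from the bait in 129s and 91.3 kb in each C57BL/6 library. Counted back from the first Ighg1 exon, they lay 8.15 to 8.41 kb upstream in 129s and 4.84 to 4.90 kb upstream in C57BL/6.

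Sγ1 junctions were also spread more widely in 129s than in the 3 C57BL/6 libraries. The interquartile range of the distance was 3.35 to 3.59 kb in 129s and 2.12 to 2.22 kb in C57BL/6, and the span from the 5th to the 95th percentile was 6.99 to 7.33 kb against 4.79 to 4.96 kb. Junctions over 4 kb beyond the centre made up 3.84%, 6.07% and 4.76% of Sγ1 deletions in 129s libraries 1, 2 and 3, against 0.758%, 1.29% and 1.02% in C57BL/6. This cut does not fall in the same part of the repeats. Past it, windows of 500 bp held up to 15 copies of AGCT in 129S1/SvImJ, at 100.5 kb, and up to 6 in C57BL/6J, at 97.0 kb. Other C57BL/6 lists were as wide or wider: the library labelled WT 2 had an interquartile range of 3.53 kb, a span of 10.2 kb and a tail of 18.1%, and the 10 lists reached an interquartile range of 7.20 kb and a tail of 39.6%. Counting instead those within 2 kb of the first Ighg1 exon or beyond it turned the order: 0.426%, 0.343% and 0.146% in 129s, against 3.92%, 5.46% and 4.62% in C57BL/6. The Sγ1 window ends at 105.6 kb in 129s and at 101.3 kb in C57BL/6 and so reaches further past the exon in C57BL/6, which means that this second measure covers unlike stretches.

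**Figure D3:**
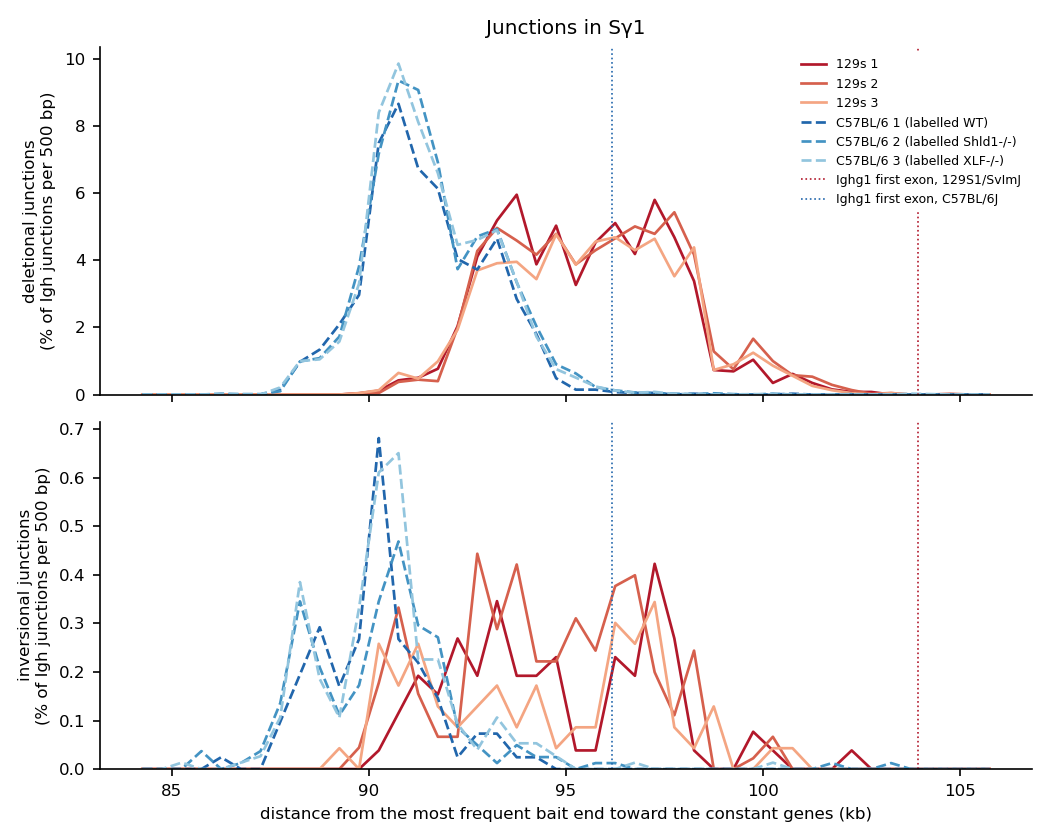
Deletional (top) and inversional (bottom) junctions per 500 bp as a percentage of Igh junctions (y axes) against the distance from the most frequent bait end (x axis, kb), 1 line per library (solid, 129s; dashed, C57BL/6). Dotted lines mark the first Ighg1 exon, at 96.2 kb in C57BL/6J and 103.9 kb in 129S1/SvImJ. The C57BL/6 curves peak in 1 narrow stretch, and the 129s curves form a plateau with a span of 6.99 to 7.33 kb.

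Single positions in the 129s Sγ1 are less certain than in C57BL/6. The 129S1/SvImJ Sγ1 contains a tandem copy of itself: 4387 aligned bases with 93.6% identity, from 92.1 to 96.5 kb and again from 94.7 to 99.0 kb, and no match of that identity over 1 kb away was found in the C57BL/6J window. Of Sγ1 preys in 129s libraries 1, 2 and 3, 80.7%, 80.1% and 77.9% had a second place of equal score, most often 2594 bp away. In C57BL/6 libraries 1, 2 and 3 it was 9.62%, 11.4% and 11.5%. The deposited mapping-quality flag was set for 85.3 to 85.6% of Sγ1 junctions in 129s and for 39.3 to 41.0% in C57BL/6, but at Sμ for 38.8 to 43.0% against 41.6 to 48.3%. The spread of deletional Sγ1 junctions depended on placement. With an equal second place, the interquartile range was 2.89 to 3.10 kb in 129s and 1.06 to 1.07 kb in C57BL/6. With a single best place it was 5.72 to 7.19 kb and 2.29 to 2.31 kb. Among 129s preys with an equal second place, the tail beyond 4 kb was 0.150 to 0.975%, and among those with a single best place it was 19.6 to 27.7%. The tail starts beyond the end of the copied stretch at 99.0 kb. Whether this split follows from where the copy lies was not tested.

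With all rows kept, the structure of the Sμ-Sγ1 joins overlapped between 129s and the 3 C57BL/6 libraries. The libraries labelled C57BL/6 WT 2 and WT 3 lay outside the 129s ranges, with direct joins at 16.9% and 18.2% and MH over 3 bp at 30.5% and 20.3%. Direct joins made up 28.6% (26.3 to 31.01), 31.3% (29.5 to 33.1) and 30.5% (27.9 to 33.1) of Sγ1 junctions without insertion in 129s libraries 1, 2 and 3. In C57BL/6 libraries 1, 2 and 3 they made up 30.3% (28.3 to 32.3), 30.8% (29.4 to 32.2) and 31.0% (29.6 to 32.5). The widest difference between any library of 129s and any of C57BL/6 was 2.39 percentage points. MH over 3 bp was found at 9.89 to 12.6% in 129s and 11.04 to 12.3% in C57BL/6, and MH over 6 bp at 2.02 to 2.92% and 2.52 to 3.29%. Insertions were found at 16.5 to 19.8% of Sγ1 junctions in 129s and 17.1 to 17.9% in C57BL/6, with a median of 2 inserted bases in each of the 6 libraries. Inversional Sγ1 junctions made up 4.98%, 6.39% and 4.81% in 129s, and 4.51%, 4.25% and 5.10% in C57BL/6.

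**Figure D4:**
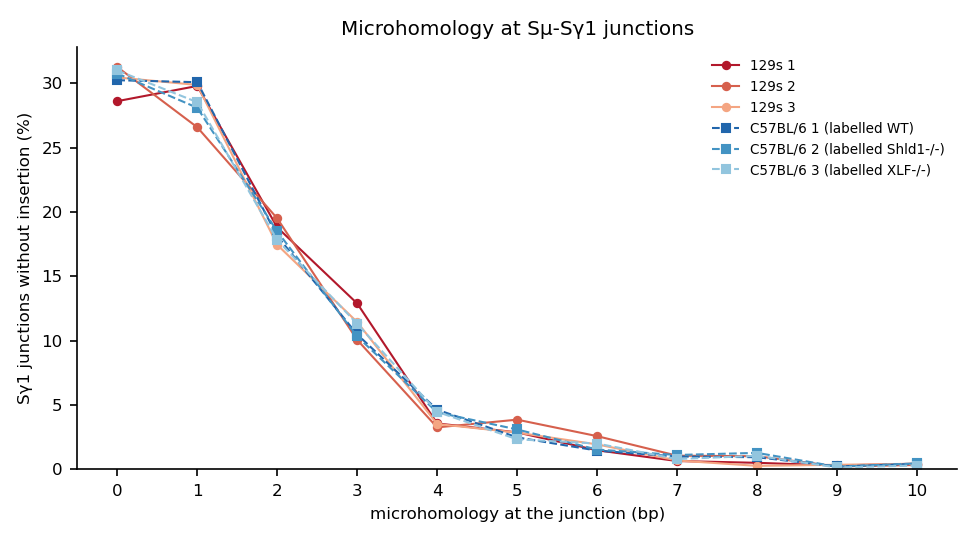
Share of Sγ1 junctions without insertion (y axis, %) by length of microhomology (x axis, bp; 0 is a direct join), 1 line per library (circles, 129s; squares, C57BL/6). The 6 lines run together, from 28.6 to 31.3% at 0 bp down to at most 4.62% at 4 bp.

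The same short homologies recurred in both strains. CAG, which occurs several times in the bait shown above, was the commonest MH of 3 bp in each library, at 30.3%, 31.9% and 36.5% of such junctions in 129s libraries 1, 2 and 3 and at 28.4%, 24.2% and 31.6% in C57BL/6 libraries 1, 2 and 3. Examples from the 129s libraries show what each class looks like, 25 bases on each side of the join. In the direct join the prey is in capitals, in the MH joins the shared bases, and in the insertion the added bases.
129s library 1, direct: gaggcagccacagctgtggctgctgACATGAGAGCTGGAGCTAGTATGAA
129s library 2, MH of 3 bp: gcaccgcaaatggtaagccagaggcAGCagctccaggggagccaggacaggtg
129s library 2, MH of 6 bp: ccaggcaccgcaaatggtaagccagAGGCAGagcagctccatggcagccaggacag
129s library 3, insertion of 2 bp: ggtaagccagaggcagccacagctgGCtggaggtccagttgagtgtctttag
Each was chosen to have a single best place. Their preys matched the minus strand of the 129S1/SvImJ scaffold at bases 208139 to 208223, 201488 to 201594, 207337 to 207426 and 199005 to 199103, in the order shown, which is between the first exons of Ighg3 and Ighg1. The bait part of the read ended at bait base 77, 60, 59 and 68. In the 129s libraries, 19.5 to 23.0% of chromosome 12 junctions had a bait of over 120 bases, against 9.72 to 13.0% in C57BL/6. Bait ends within the AGCT that starts at base 64 made up 6.22 to 7.60% in 129s and 4.88 to 6.73% in C57BL/6.

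Joins to Sε, the acceptor for IgE, took a larger share in 129s. Junctions within 6 kb before the first Ighe exon numbered 71, 174 and 56 in 129s libraries 1, 2 and 3, or 2.73% (2.17 to 3.43), 3.86% (3.33 to 4.46) and 2.41% (1.86 to 3.11) of Igh junctions. In C57BL/6 libraries 1, 2 and 3 they numbered 24, 101 and 75, or 0.584% (0.393 to 0.868), 1.25% (1.03 to 1.51) and 0.996% (0.795 to 1.25). No interval of 129s overlapped one of C57BL/6, and none of the 10 C57BL/6 lists exceeded 1.25%. These junctions lay at a median of 2.39 to 2.63 kb before the exon in 129s and 2.41 to 2.69 kb in C57BL/6. Direct joins among them were 18 of 56, 48 of 133 and 15 of 47 without insertion in 129s, or 32.1%, 36.1% and 31.9%, with intervals that span the Sγ1 values of the same libraries.

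Other acceptors were rare. Junctions within 6 kb before the first Ighg2b exon, a region named after its values were seen, numbered 22, 26 and 21 in 129s (0.845%, 0.576% and 0.903% of Igh junctions), against 7, 6 and 6 in C57BL/6 (0.170%, 0.0740% and 0.0796%). The highest of the 10 C57BL/6 lists reached 0.312%. Over the whole interval between the first Ighg1 and Ighg2b exons the gap was smaller, with 0.621 to 0.903% in 129s and 0.341 to 0.432% in C57BL/6, and the 10 C57BL/6 lists reached 9.79%. The same stretch before Ighg3 did not separate the strains, with 0.461%, 1.04% and 1.16% in 129s and 0.730%, 0.395% and 0.518% in C57BL/6. Before Igha it held 2, 0 and 3 junctions in 129s and 3, 2 and 2 in C57BL/6.

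**Figure D5:**
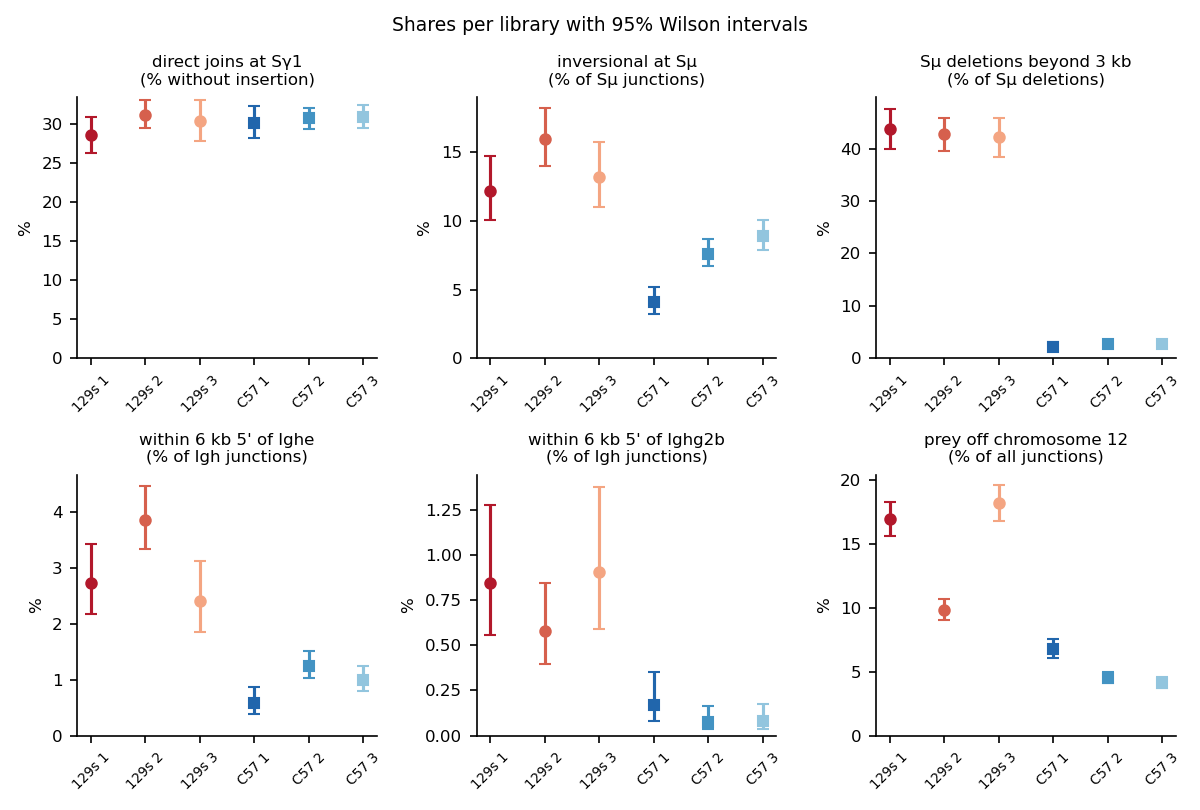
Shares per library in 6 panels (y axes, %, starting at 0), with points for 129s libraries 1 to 3 (circles) and C57BL/6 libraries 1 to 3 (squares) and 95% Wilson intervals as bars. Direct joins overlap between 129s and these 3 C57BL/6 libraries. In the other panels each 129s value is above each of these 3 C57BL/6 values, for example 2.41 to 3.86% against 0.584 to 1.25% before Ighe.

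Preys on other chromosomes were more frequent in 129s than in the 3 C57BL/6 libraries and held insertions less often. They made up 16.9%, 9.81% and 18.2% of all junctions in 129s libraries 1, 2 and 3 (537, 495 and 524 junctions), and 6.78%, 4.52% and 4.101% in C57BL/6 libraries 1, 2 and 3 (301, 386 and 324 junctions). The libraries labelled C57BL/6 WT 2 and WT 3 had 14.4% and 17.04%, within the 129s range, and the 10 C57BL/6 lists spanned 4.101 to 17.04%. Insertions were found at 16%, 11.1% and 11.6% of them in 129s, against 30.2%, 39.6% and 46.3% in C57BL/6, with no overlap of intervals. MH over 3 bp was frequent in both, at 42.1 to 44.6% of those without insertion in 129s and 35.6 to 41.4% in C57BL/6. The median aligned prey was 99.0 to 114 bases in 129s and 52.0 to 78.0 bases in C57BL/6. They were scattered: at most 4 fell in 1 Mb in any 129s library, and the leading chromosomes were 2 (60 and 50 junctions in libraries 1 and 2) and 1 and 5 (41 each in library 3). Prey ends shared between libraries numbered 3 to 6 for pairs across strains and 2 to 17 for pairs within a strain.

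The groups as labelled held too few libraries for the test to tell them apart. The libraries labelled C57BL/6 WT also differed widely among themselves. Between the 3 libraries of 129s and the 3 labelled C57BL/6 WT, 8 measures were compared by an exact two-sided permutation test of library means, for which the smallest possible p is 0.1. The Sγ1 share of Igh junctions reached it (65.7% ± 3.72 against 42.9% ± 16.3, SD, n = 3 each, exact permutation p = 0.1, adjusted p = 0.533). This share was 57.2% in C57BL/6 library 1, 25.1% in WT 2 and 46.3% in WT 3. The other 7 measures had exact permutation p of 0.2 to 0.9 (adjusted 0.533 to 0.9). The libraries labelled C57BL/6 WT 2 and WT 3 stood apart from C57BL/6 library 1, with direct joins at 16.9% and 18.2% and MH over 3 bp at 30.5% and 20.3% of Sγ1 junctions. For both measures, WT 2 and WT 3 lay nearer to the study's printed values for Shld1-/- or XLF-/- cells than to those for WT. Which genotype they carry was not tested. Set against C57BL/6 library 1 alone, the only one of the 6 labelled both C57BL/6 and WT, the 129s libraries were all above it for Sμ deletions beyond 3 kb, Sμ inversions, Sε, Sγ2b and preys off chromosome 12, and lay on both sides of it for direct joins, MH over 3 bp and insertions at Sγ1.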

How the data were processed

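CSR-HTGTS libraries were made by the authors from genomic DNA and processed with their published pipeline. The processing notes of the submitters name Bowtie2 and mm9 for every sample. The methods name mm9 for the C57BL/6 libraries, and the reference behind the numbering of the 129s lists is not given in the sources used here. The deposited lists, per the file headers, hold 1 row per junction with positions, strands, read sequence and flags set by the authors. They are neither counts nor normalised values. Of 15 samples, 13 have positions and 2 lists of MH lengths were not used.

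The members and the measures were chosen with earlier results of these data known. All rows were kept, the flagged ones included, because a flag for mapping quality marks most 129s Sγ1 junctions. Distance was the most frequent bait end minus the junction, MH was the overlap of bait and prey on the read, and a negative overlap was an insertion. Igh was -40 to 220 kb. Junctions with prey and bait on the same strand were called deletional. Regions and chromosomes were named where they held at least 1% of a library's junctions. Chromosomes, Ighg3 and Ighe passed this rule, and Ighg2b and Igha, which did not, were named after their values were seen. Depth was 2880 to 8531 junctions per library. Intervals on shares are Wilson at 95%. They describe counting error alone, as PCR copies of 1 molecule are not separate events. Preys were aligned with bwa 0.7.19 (mem, seed 15, minimum score 20) to both haplotypes of GRCm38.p6, and exons were placed with blastn 2.17.0. Ighg1 and the other first exons come from the RefSeq annotation of C57BL/6J and were matched on the 129S1/SvImJ scaffold. Group means were compared by exact permutation with Benjamini-Hochberg adjustment over 8 measures, in Python 3.11.15 with scipy 1.17.1. The labels give replicates no numbers and do not tie samples to animals, so the spread between samples may be partly technical. On simulated independent junctions, 260 of 280 shares lay within their interval. These were direct joins, MH over 3 bp, insertions, inversions and share at Sγ1, Sμ inversions and preys off chromosome 12. Sμ deletions beyond 3 kb, the Sγ1 tail, Sε and Sγ2b were not simulated, nor were PCR copies or preys with an equal second place. Duplicate flags were set for 9.44 to 12.0% of 129s rows and 6.98 to 8.01% of rows in the C57BL/6 libraries. No read name was shared by any of the 15 pairs among the 6 libraries.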

Additional observations from a re-analysis of the deposited data

How the results depend on the processing

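No paired analysis was possible because the labels give no replicate numbers. Differences between the labelled groups are 129s minus C57BL/6 in percentage points. Without rows flagged for mapping quality, the Sγ1 share turned from 22.8 to -12.1, the Sγ1 tail from -2.996 to 11.5 and Sμ inversions from 0.446 to -0.138. With chromosome 12 preys of a single best place, an alternative chosen after seeing the data, they were -11.3, 14.1 and -0.278. Both settings remove most 129s Sγ1 junctions. Leaving out 1 library gave 13.9 to 29.9996 for the Sγ1 share, -6.56 to 2.11 for the tail (2.11 without C57BL/6 WT 2), -4.17 to 4.14 for Sμ inversions (-0.655 without 129s WT 2, -4.17 without C57BL/6 WT 1) and -0.751 to 4.82 for preys off chromosome 12 (main 2.23, -0.751 without C57BL/6 WT 1). The other labelled differences kept their sign. No setting could give a p below 0.1, the smallest that the exact permutation test allows with so few libraries.

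For the 6 libraries described, the space between the nearest 129s and C57BL/6 libraries was followed. Leaving out 1 library can only keep or widen this space. For Sμ deletions beyond 3 kb it was 39.4, and 38.2 without duplicates, 33.8 without mapping-quality flags, 38.4 with identical junctions counted once, 40.6 with at least 50 prey bases and 40.9 with a single best place. For the Sγ1 tail it was 2.55, and 17.9 without mapping-quality flags, 18.1 with a single best place, 0.821 with a core of 5 kb and -5.32 when counted from the Ighg1 exon. Preys off chromosome 12 gave 3.03, and 14.4 without mapping-quality flags and 14.3 with a single best place (3.03 to 10.2 with 1 library left out, the highest without 129s library 2). Sε gave 1.16, and 5.12 and 4.25. Sγ2b gave 0.406, and 1.56 and 1.31 (0.406 to 0.675 with 1 library left out). The widest difference of direct joins was 2.39, and 4.304 without mapping-quality flags, 7.34 with a single best place, 3.79 over all of chromosome 12 and 1.03 to 2.39 with 1 library left out. That of MH over 3 bp was 2.42, and 4.20 and 3.96 in the first 2. The cause of these shifts was not tested. In all, 194 of 227 results recomputed kept their direction or, for values with no test, moved by less than the spread between replicates. Those 227 include spaces and widest differences with 1 library left out. Such a space can only keep or widen, and such a difference only keep or narrow, so these results do not test stability.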
